A study of Mus musculus with 8 samples.

Results

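Transcripts of 9 genes that write, copy, erase or read DNA methylation were followed in mouse B-lymphoid cells with and without c-JUN: the methyltransferase genes Dnmt1, Dnmt3a, Dnmt3b and Dnmt3l, the maintenance partner Uhrf1, the oxidase genes Tet1, Tet2 and Tet3, and the reader Mbd2. They were chosen by gene name, and each was represented by the probe set with 1 gene symbol and the highest mean over the 8 arrays. All 9 were measured, among 19937 genes in the table. BCR-ABL, the kinase fusion behind the leukemia studied, is the setting given in the title, which links the AP-1 transcription factor c-JUN to methylation near the start of Cdk6, a G1 cyclin-dependent kinase gene. The question put to the data was whether transcripts of the methylation machinery itself differed between the genotypes.

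The knockout group held 4 samples labelled c-jun knock out and the wild-type group 4 samples labelled wild type. All samples were of the same cell type and carried the strain label SW129/C57BL/6J. Each group held 2 samples with RO titles. The other 2 had D titles in the knockout group and F titles in the wild-type group, and these are called the D/F samples here. Presence of BCR-ABL, the way Jun was deleted and the animal or culture behind each sample are not stated in the labels. The p-values therefore reflect sample-to-sample spread only, and some of that spread may be technical.

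DNA methylation in mammals sits mainly on cytosines followed by guanine (CpG). DNMT3A and DNMT3B place new methyl groups, with DNMT3L as a cofactor that has no catalytic activity of its own, while DNMT1, guided by UHRF1 to hemimethylated sites behind the replication fork, copies the pattern to the new strand. TET1, TET2 and TET3 oxidise the methyl group as the first step of its removal, and MBD2 binds methylated CpG and brings in the NuRD repressor complex. Loss of TET2 or DNMT3A function is known from blood cancers, and promoter methylation is a common way in which leukemic cells silence genes.

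The region that the study's title concerns lies at the start of Cdk6. It is shown because CpGs there are the substrate of the enzymes described below. The RefSeq sequence of the 250 bases before the annotated Cdk6 start (GRCm38.p6, chr5:3343643-3343892, plus strand) held 22 CpGs, printed in capitals.
Cdk6: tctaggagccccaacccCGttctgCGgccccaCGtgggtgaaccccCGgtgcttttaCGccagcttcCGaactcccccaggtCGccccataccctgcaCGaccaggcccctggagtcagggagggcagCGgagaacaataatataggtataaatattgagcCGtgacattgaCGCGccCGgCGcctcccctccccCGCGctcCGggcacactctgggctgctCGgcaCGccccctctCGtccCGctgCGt
The median over all 32851 annotated starts was 6 CpGs in a window of this length. Methylation was not measured on these arrays.

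Signals are log2 values, 1 array per sample, with array medians over all probe sets between 6.93 and 7.42. Jun was at 6.99, 6.46, 7.02 and 6.97 in knockout replicates 1 to 4 and at 8.82, 8.84, 10.55 and 8.77 in wild-type replicates 1 to 4, with no overlap. The means were 6.86 ± 0.27 (SD, n = 4) and 9.25 ± 0.87 (SD, n = 4). Cdk6 was at 8.81 ± 1.48 (SD, n = 4) against 11.30 ± 0.29 (SD, n = 4). As a stand-in for background, 1190 olfactory and vomeronasal receptor genes, which lymphoid cells are not known to use, had a 95th percentile between 6.59 and 7.17 on the 8 arrays. All 11 measured B-cell precursor markers had a mean above the mean of that level. So did 5 of 12 myeloid, 4 of 9 T and NK, 5 of 7 erythroid and megakaryocyte, 4 of 9 stromal and 4 of 9 mature B and plasma cell markers. The same held for 13032 of all 19937 genes, so a signal above this level does not by itself show that a cell type was present. Of the myeloid markers, Itgam, Cd14, Csf3r, S100a8 and Ly6g exceeded the level on 0 of 8 arrays, S100a9 and Csf1r on 1, Mpo on 3 and Elane on 7, while Lyz2, Fcgr3 and Cebpa exceeded it on all 8. In bulk samples, fewer cells of a type and less RNA per cell cannot be told apart.

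Transcript levels of the 9 genes differed little between genotypes, and for all 9 the knockout and wild-type samples overlapped. Group means lay within 0.22 log2 units of each other. In the limma fit with genotype and title as terms, 0 of 9 passed after Benjamini-Hochberg adjustment over all genes, where 0.00502% of all genes (1 of 19937) passed. That gene was Pja1, a ubiquitin ligase gene, which was chosen after its value was seen (log2 difference -1.92, adjusted p = 0.0102). Jun, the deleted gene, did not pass in this fit (log2 difference -2.38, limma adjusted p = 0.106). Nor did Cdk6 (log2 difference -2.48, limma adjusted p = 0.878). Failing this threshold with 8 arrays therefore does not show that a gene was unchanged. None of the 9 had an unadjusted limma p under 0.05 (0 of 9), where 2.25% of all genes did, 1.72% lower and 0.537% higher in knockout samples. The groups did not overlap for 1.29% of all genes. In 3 of the 9 genes (Dnmt3l, Tet1 and Mbd2) the RO and D/F samples gave opposite signs, as in 55.9% of all genes. Of the 9 means, 7 were lower in knockout samples, a direction shared by 72.0% of all genes, and the median difference was -0.08 over the 9 genes and -0.11 over all genes. Under quantile normalization 4 of the 9 were lower, against 56.5% of all genes, and with each array centred on its median 3 were lower, against 39.7%. The direction shared by the group therefore moved with the scaling. Centring adds the same positive amount to the log2 difference of every gene. Centred counts and changes of sign, here and below, reflect that shift and are not separate results.

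**Figure D1:**
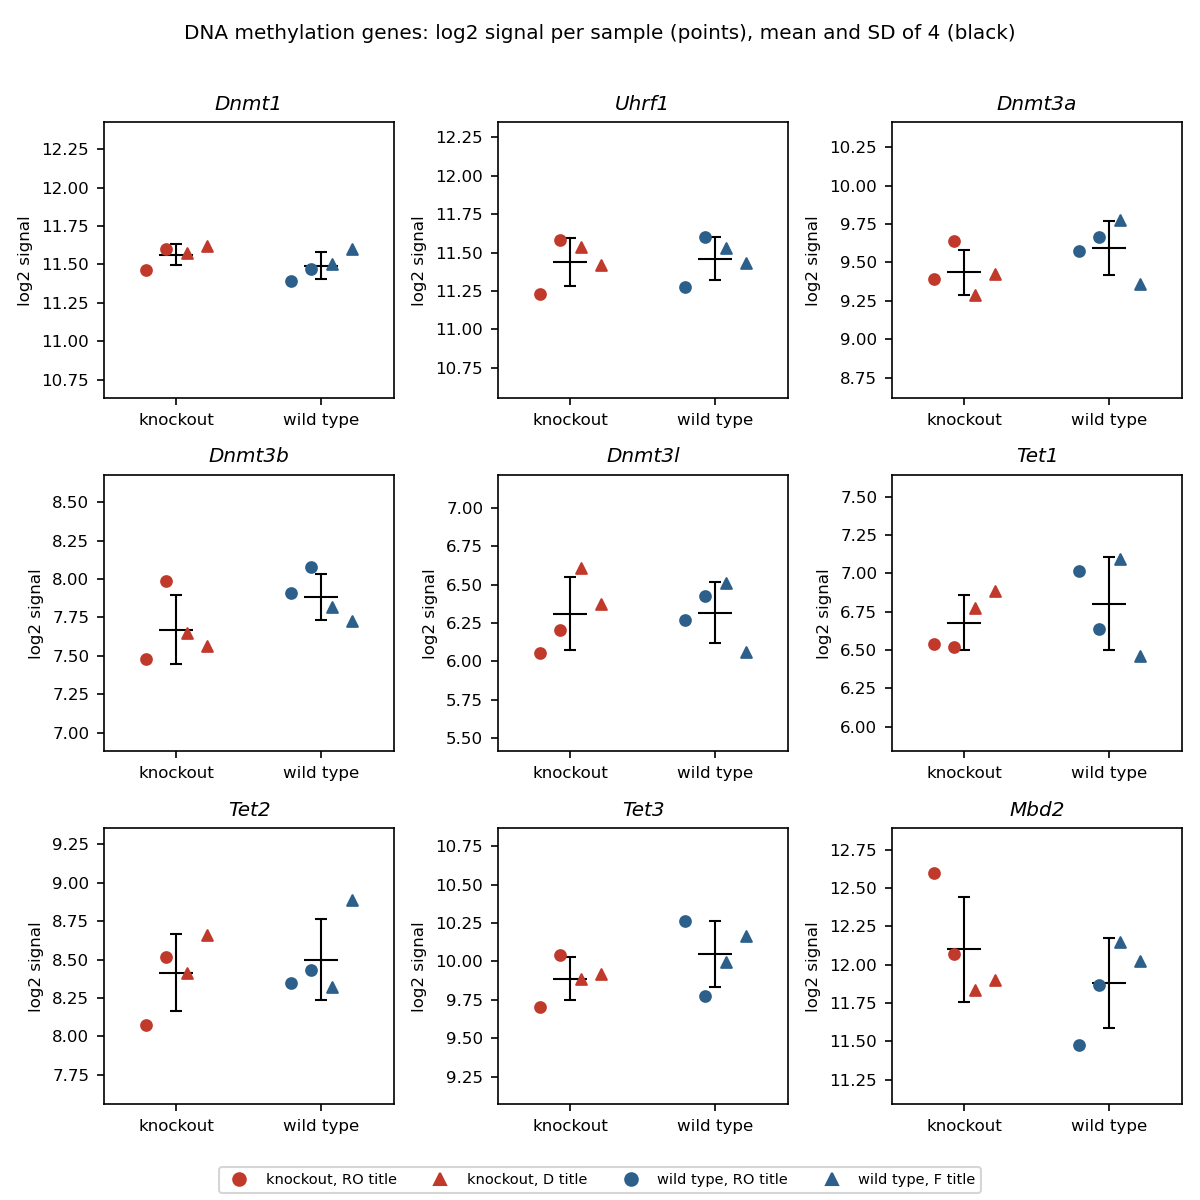
The log2 signal of each of the 9 genes in every sample, with knockout samples in red, wild-type samples in blue, circles for RO titles, triangles for D or F titles, and the mean and SD of 4 samples in black. Every panel spans the same range of log2 units; the points of Dnmt1 lie closest together and those of Mbd2 are spread from 11.48 to 12.59.

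On the deposited scale the maintenance pair varied least of the 9 genes, but not with arrays centred on their medians. Dnmt1, the enzyme that copies methylation to new DNA, was at 11.46, 11.60, 11.57 and 11.62 in knockout replicates 1 to 4 and at 11.39, 11.47, 11.50 and 11.60 in wild-type replicates 1 to 4. All 8 samples fell within 0.23 log2 units, and 3 of 4 knockout samples lay above the wild-type mean. The knockout level was 1.05-fold the wild-type level (95% interval 0.882 to 1.26, limma adjusted p = 0.882). The residual SD of Dnmt1 was 0.06 log2 units, at percentile 0.421 of all genes and 0.813 of the genes with a mean at or above the median. The difference was 0.10 among RO and 0.04 among D/F samples. With each array centred on the median of its genes, Dnmt1 ran from 3.67 to 4.41 log2 units above that median and Uhrf1 from 3.56 to 4.39. This was a wider spread than that of Tet1, Dnmt3l, Dnmt3a, Dnmt3b or Tet3. With centring on the median of all probe sets, as for all other centred differences, the Dnmt1 difference was 0.23.

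Uhrf1, whose protein reads hemimethylated CpG and brings DNMT1 to it, was at 11.23, 11.58, 11.54 and 11.42 in knockout and at 11.27, 11.60, 11.53 and 11.44 in wild-type samples. Replicate 1 was the lowest sample of both groups, and the other samples of the 2 groups were interleaved. The knockout level was 0.988-fold the wild-type level (95% interval 0.805 to 1.21, limma adjusted p = 0.971). The sign of this small difference turned to 0.14 on the log2 scale with arrays centred on their medians.

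The windows before the starts of Dnmt1 and Uhrf1 shared a feature that is shown because both genes are known to rise as cells enter S phase. The letters TTTCGCGC or TTTGGCGC match sites of E2F factors (the regulators of S-phase genes). They were found on either strand in 1 of 3 Dnmt1 windows and 1 of 2 Uhrf1 windows, against 0.654% of all windows. Over the 8 genes searched they were in 2 of 15 windows. The letters contain CpG, and the 2 windows held 26 and 30 CpGs against a median of 6 over all windows. The share over all windows is thus an unlike background. The match is in capitals, with 10 bases on either side, as chr9:20952825-20952852 on the minus strand for Dnmt1 and chr17:56304118-56304145 on the plus strand for Uhrf1 (RefSeq, GRCm38.p6). In Dnmt1 the letters lie on the opposite strand, so the capitals show their reverse complement.
Dnmt1: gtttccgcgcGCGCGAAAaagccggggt
Uhrf1: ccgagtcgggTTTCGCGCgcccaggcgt
The Uhrf1 match began 185 bases before its start. The Dnmt1 match began 219 bases before one annotated start and 137 bases after another. Both are letter matches, not measured sites. The AP-1 letters TGANTCA, which c-JUN-containing dimers bind, were in 0 of 15 windows of the 8 genes searched (all but Mbd2), against 6.75% of all windows. The related CRE letters TGACGTCA were also in 0 of 15, against 1.55% of all windows, and nothing about binding follows from either.

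Cells that divide more carry more maintenance enzyme, so S-phase genes are given beside this pair. Of 25 measured S-phase genes 20 were higher on average in knockout samples, with a median of 0.09 and 0 past the adjusted threshold in limma (1 at an unadjusted p under 0.05, Tipin, which encodes a replication fork protection protein). Of all 19937 genes, 5582 were higher. Under quantile normalization 19 of the 25 were higher, with a median of 0.05, and with centring all 25 were, with a median of 0.24. Of all genes, 56.5% were lower under quantile normalization and 39.7% with centring, with medians of -0.02 and 0.04. With centring all 11 B-cell precursor markers were higher as well, so this direction was not particular to S-phase genes. The S-phase median was 0.19 among RO and 0.02 among D/F samples, against -0.25 and 0.0097 for all genes. Tipin had a log2 difference of 0.41 (SE 0.17), or 0.25 without wild-type replicate 1, and Slbp, the histone mRNA-binding protein gene, had 0.32 (SE 0.16), or 0.19 without the same array. The part of cell division in the Dnmt1 and Uhrf1 values was not tested.

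Other factors of maintenance methylation were mixed in direction on the deposited scale. Of 11 measured, 7 were higher and 4 lower on average, with a median of 0.06, and 0 passed. With arrays centred, all 11 were higher, with a median of 0.22, where 39.7% of all genes were lower and their median was 0.04. Pclaf, a PCNA-associated factor of replicating cells, had 0.29 (SE 0.20), but 0.04 without wild-type replicate 1, whose signal was 11.68 against 12.58 to 12.80 in the other wild-type samples. Pcna, the clamp that holds DNMT1 at the fork, had 0.16 (SE 0.12).

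The de novo enzyme genes Dnmt3a and Dnmt3b were lower on average in knockout samples on the deposited scale, without passing, and the size of both differences depended on the scaling. Dnmt3a was at 9.39, 9.64, 9.29 and 9.42 in knockout replicates 1 to 4 and at 9.57, 9.67, 9.78 and 9.36 in wild-type replicates 1 to 4. In Dnmt3a, 3 of 4 knockout samples lay below the wild-type mean, but wild-type replicate 4 lay among the knockout samples and knockout replicate 2 among the wild-type ones. The knockout level was 0.896-fold the wild-type level (95% interval 0.711 to 1.13, limma adjusted p = 0.878). The log2 difference was -0.10 among RO and -0.21 among D/F samples. Leaving out wild-type replicate 4 gave -0.23, and leaving out wild-type replicate 3 gave -0.06. The difference was -0.17 under quantile normalization but -0.0054 with arrays centred on their medians.

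Dnmt3b, the second de novo enzyme, was at 7.48, 7.99, 7.65 and 7.56 in knockout and at 7.91, 8.08, 7.82 and 7.73 in wild-type samples. Knockout replicates 1, 3 and 4 were the 3 lowest samples, while knockout replicate 2 fell inside the wild-type range. Its level of 0.862-fold (95% interval 0.666 to 1.11, limma adjusted p = 0.878) was the lowest ratio of the 9 genes. The log2 difference of -0.21 (SE 0.17) was -0.26 among RO and -0.17 among D/F samples. It was -0.10 without knockout replicate 1 and -0.31 without knockout replicate 2. Quantile normalization gave -0.09 and centring -0.06.

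Dnmt3l, the cofactor gene that is known mainly from germ cells and early embryos, was at 6.06, 6.21, 6.61 and 6.37 in knockout and at 6.27, 6.43, 6.51 and 6.06 in wild-type samples. Every signal lay below the median of its own array and below the 95th percentile of the receptor genes, so its size and order cannot be read. The log2 difference was -0.0054 (95% interval -0.41 to 0.40, limma adjusted p = 0.994), with -0.22 among RO and 0.21 among D/F samples. It turned to 0.13 under quantile normalization and 0.15 with centring.

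The starts of the de novo genes differed in CpG content, and 2 are shown as the contrast between an expressed and a background-level member. The 250 bases before the Dnmt3b start (RefSeq, GRCm38.p6, chr2:153649199-153649448, plus strand) held 21 CpGs, and those before the most upstream Dnmt3l start (chr10:78042037-78042286, plus strand) held 5. CpGs are in capitals.
Dnmt3b: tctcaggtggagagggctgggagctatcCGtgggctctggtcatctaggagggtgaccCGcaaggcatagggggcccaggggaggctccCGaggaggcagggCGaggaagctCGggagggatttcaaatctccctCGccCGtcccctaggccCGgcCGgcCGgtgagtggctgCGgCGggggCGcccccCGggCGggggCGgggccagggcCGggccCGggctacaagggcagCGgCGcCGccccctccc
Dnmt3l: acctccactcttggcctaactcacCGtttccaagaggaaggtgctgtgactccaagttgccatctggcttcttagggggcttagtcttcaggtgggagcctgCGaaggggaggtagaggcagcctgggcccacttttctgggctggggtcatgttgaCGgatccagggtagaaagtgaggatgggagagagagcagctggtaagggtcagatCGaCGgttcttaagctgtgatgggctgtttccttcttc
The 3 Dnmt3l windows held 3 to 5 CpGs, the 3 Dnmt3a windows 15 to 40, and the single windows of Tet1, Tet2 and Tet3 held 15, 51 and 17. Tet1, whose signal was also at the background level, thus had a window richer in CpG than any of Dnmt3l.

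The 3 TET genes were lower on average in knockout samples on the deposited scale, and none passed. Tet1 and Tet2 changed sign with the scaling, and Tet3 fell close to 0 with centring. Tet2, the TET gene most often lost in blood cancers, was at 8.07, 8.52, 8.41 and 8.66 in knockout and at 8.35, 8.43, 8.32 and 8.89 in wild-type samples. The groups were interleaved, with the lowest sample in the knockout group and the highest in the wild-type group. The knockout level was 0.943-fold the wild-type level (95% interval 0.716 to 1.24, limma adjusted p = 0.905). The log2 difference of -0.08 turned to 0.01 under quantile normalization, 0.07 with centring, 0.02 with array weights, 0.03 without wild-type replicate 4 and 0.0076 without knockout replicate 1.

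Tet3 was at 9.70, 10.04, 9.89 and 9.92 in knockout and at 10.26, 9.77, 9.999 and 10.17 in wild-type samples. All 4 knockout samples lay below the wild-type mean of 10.05, yet wild-type replicate 2 was lower than 3 of them. The ratio was 0.894 (95% interval 0.705 to 1.13, limma adjusted p = 0.878), with log2 differences of -0.14 in RO and -0.18 in D/F samples. A second Tet3 probe set did not share it, with a log2 difference of 0.02 (SE 0.15). The difference of -0.16 was -0.07 with the mean of the Tet3 probe sets, -0.03 with array weights, -0.18 under quantile normalization and -0.0091 with centring. Leaving out wild-type replicate 1 gave -0.07 for Tet3, and leaving out wild-type replicate 2 gave -0.26.

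Tet1, best known from embryonic stem cells, was at 6.54, 6.52, 6.77 and 6.89 in knockout and at 7.02, 6.64, 7.09 and 6.46 in wild-type samples. All 8 signals lay below the array median and below the 95th percentile of the receptor genes, as for Dnmt3l. The log2 difference was -0.12 (SE 0.20, limma adjusted p = 0.883), and -0.17 and -0.03 in the other 2 Tet1 probe sets. It turned to 0.03 under quantile normalization and under centring. Tet1 had -0.28 when wild-type replicate 4 was left out and -0.01 when wild-type replicate 1 was.

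**Figure D2:**
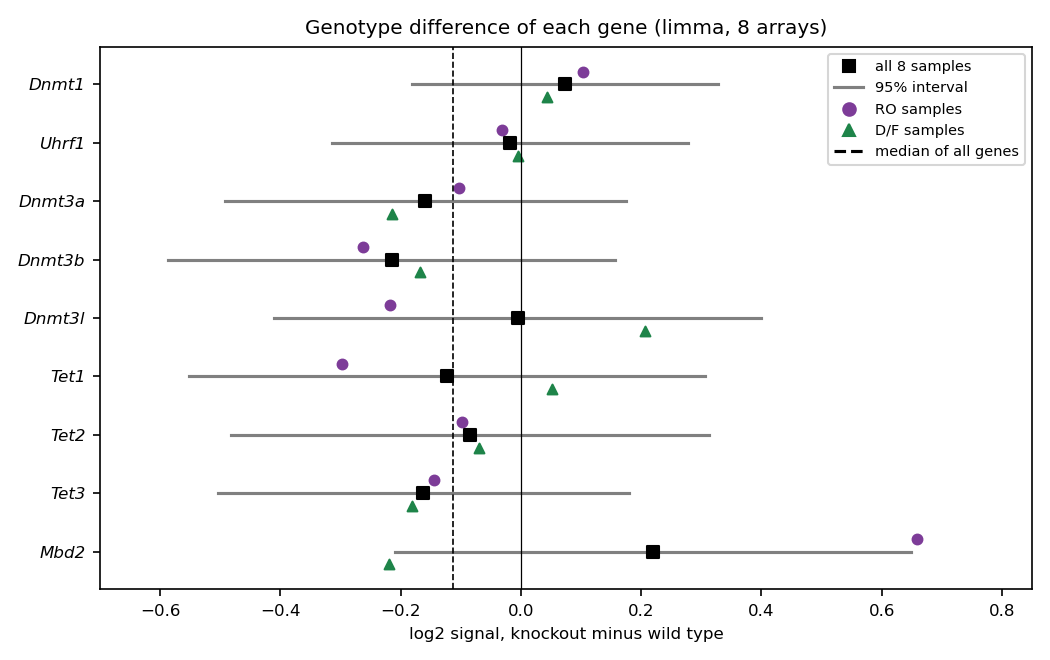
Log2 difference of each gene, knockout minus wild type, as black squares with 95% intervals from the limma fit of 8 arrays; purple circles are the RO samples alone, green triangles the D/F samples alone, and the dashed line is the median of all genes at -0.11. All 9 intervals include 0, and the RO and D/F values lie farthest apart for Mbd2.

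Mbd2 was the most variable of the 9 and went opposite ways in the 2 sets of titles. It was at 12.59, 12.07, 11.84 and 11.90 in knockout replicates 1 to 4 and at 11.48, 11.87, 12.15 and 12.03 in wild-type replicates 1 to 4. Among RO samples (replicates 1 and 2) both knockout samples lay above both wild-type samples, and among D/F samples (replicates 3 and 4) both lay below. The log2 difference was 0.66 among RO samples and -0.22 among D/F samples. Over all 8 samples the ratio was 1.16 (95% interval 0.865 to 1.57, limma adjusted p = 0.878).

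The difference between these 2 values, -0.88 (SE 0.30), had an unadjusted limma interaction p of 0.0134 and did not pass over all genes (adjusted p = 0.716). Of the 9 genes only Mbd2 had an unadjusted interaction p under 0.05, where 5.38% of all genes did, and 0.0301% of all genes passed the adjustment. The separation seen in Mbd2, above in RO and below in D/F without overlap, was shared by 2.14% of all genes. Leaving out knockout replicate 1, the highest sample, raised the unadjusted interaction p to 0.0716, and leaving out wild-type replicate 3 raised it to 0.0508. The lowest interaction adjusted p over 12 alternatives was 0.184. RO and D/F titles did not separate the 9 genes. Between them 0 of 9 passed in limma and 0 had an unadjusted p under 0.05, where 0.0201% and 3.12% of all genes did. All D samples were knockout and all F samples wild type. Within the D/F samples, genotype and D or F title therefore cannot be told apart.

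Other genes moved with Mbd2. With arrays centred on their medians, its most alike genes among 9968 searched were Psmg2, a proteasome assembly chaperone gene (r = 0.990 over 8 arrays), Tmem60 (r = 0.989) and Acat1, a mitochondrial thiolase gene (r = 0.986), as a description of arrays that share their scaling. On the deposited scale these r were 0.975, 0.976 and 0.856. Psmg2 was at 11.48, 10.88, 10.85 and 10.88 in knockout and 10.44, 10.83, 11.18 and 11.02 in wild-type samples, so it too was highest in knockout replicate 1 and lowest in wild-type replicate 1. In all, 393 genes had r over 0.9 with Mbd2 after centring and 72 as deposited.

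Cell type markers moved both with and against Mbd2, and their part in its values was not tested. Il7r, the interleukin-7 receptor gene of B-cell precursors, was at 12.40 and 12.44 in RO knockout, 8.92 and 11.64 in RO wild-type, 9.75 and 8.96 in D knockout and 11.39 and 10.13 in F wild-type samples. Lyz2, a lysozyme gene of myeloid cells, was at 10.63 and 10.64, then 8.33 and 8.66, then 9.24 and 7.44, then 9.93 and 8.35 in the same order. In this Lyz2 ran against its own list. Every other myeloid marker was lower on average in RO knockout than in RO wild-type samples. Cd22, a B-cell surface receptor gene on the mature B list, ran opposite to Mbd2, with a log2 difference of -1.56 among RO and 0.93 among D/F samples. These 3 were named after their values were seen. The median difference of the 12 myeloid markers was -0.40 among RO and 0.06 among D/F samples, against -0.25 and 0.0097 for all genes. That of the 9 stromal markers was alike, at -0.45 and 0.06, so this run was not particular to myeloid markers. That of the 11 B-cell precursor markers was 0.30 and -0.04. The mean of the 12 myeloid markers ran from 6.74 to 6.98 in knockout and from 6.62 to 7.44 in wild-type samples, and that of the 11 B-cell precursor markers from 10.94 to 11.71 and from 10.52 to 11.38.

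**Figure D3:**
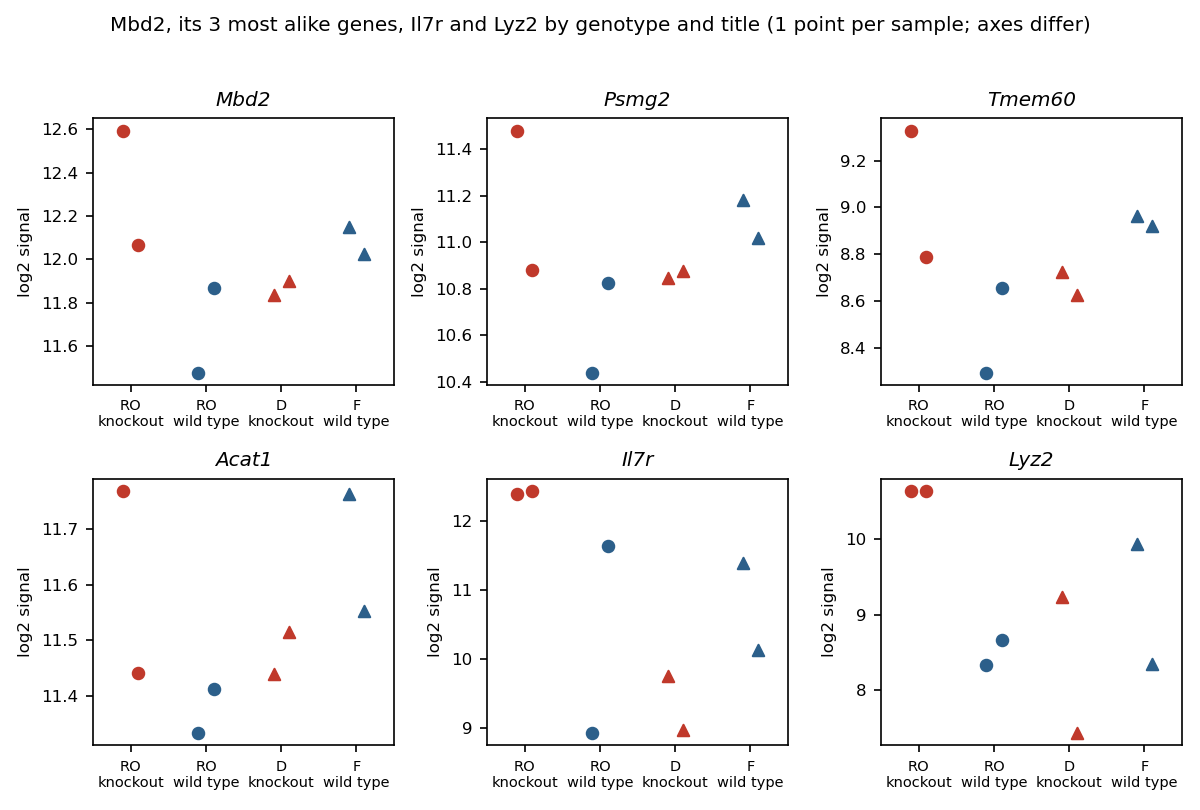
Log2 signal of Mbd2, of its 3 most alike genes, and of Il7r and Lyz2 in each sample, by genotype (red knockout, blue wild type) and title; each point is 1 array and each panel has its own axis. Mbd2 is higher in both RO knockout samples (12.59 and 12.07) than in the RO wild-type samples, and lower in both D samples (11.84 and 11.90) than in the F samples. Lyz2 differs from the other myeloid markers in the RO samples, and Cd22, which ran opposite to Mbd2, is not drawn.

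The genes most like the other members depended on the scaling. After centring, 1679 genes had r over 0.9 with Dnmt1 and 919 with Uhrf1, but only 28 and 8 as deposited, so these counts followed the scaling. Closest to Dnmt1 were Npat, the histone transcription coactivator gene (r = 0.994), Parp2 (r = 0.992) and Nol11 (r = 0.992). Closest to Uhrf1 were Rel, Smarcc1 and Ranbp2 (r = 0.988, 0.988 and 0.987, or 0.772, 0.767 and 0.732 as deposited). For Dnmt3a they were Atxn7l1, Plin2 and Asb1 (r = 0.968, 0.963 and 0.944, or 0.840, 0.957 and 0.904 as deposited). For Dnmt3b they were Ccdc14, Tsc22d2 and Rac2 (r = 0.957, 0.952 and 0.950, or 0.8805, 0.865 and 0.851 as deposited). For Tet2 they were Fem1a, Zfp142 and Tgoln1 (r = 0.988, 0.984 and 0.974, or 0.683, 0.9345 and 0.913 as deposited). For Tet3 they were Dpp9, Dpp3 and Efhd2 (r = 0.983, 0.962 and 0.959, or 0.834, 0.945 and 0.923 as deposited). For the background-level gene Dnmt3l they were Cdhr2, Umps and Baz2b (r = 0.959, 0.942 and 0.914, or 0.846, 0.901 and 0.695 as deposited). For Tet1, also at background level, they were Guca2b, Sla and Tex44 (r = 0.909, 0.903 and 0.893, or 0.970, 0.7845 and 0.956 as deposited). All are over 8 arrays.

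The wider machinery was then read as lists, described by counts and medians without a list test. No gene of any list passed over all genes in limma. The counts of lower genes below are on the deposited scale, where 72.0% of all genes were lower. With arrays centred on their medians, 39.7% of all genes were lower. The counts were then 2 of 9 methyl-CpG readers, 3 of 13 NuRD subunits and 6 of 18 demethylation genes. They were 2 of 17 methyl donor genes, 3 of 8 CXXC genes and 1 of 11 H3K9 genes. Of 9 other measured methyl-CpG readers, 7 were lower and 2 higher on average, with a median of -0.11, equal to that of all genes, and 0 had an unadjusted p under 0.05. The zinc-finger readers Zbtb38 and Zbtb4 had -0.22 each (SE 0.16 and 0.18), and Zbtb4 had -0.10 without wild-type replicate 1.

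Of 13 NuRD subunits, the complex that MBD2 recruits, 8 were lower and 5 higher, with a median of -0.05 and 0 at an unadjusted p under 0.05. Chd3, a remodelling ATPase of the complex, was at 9.25, 8.85, 7.60 and 10.17 in knockout and 10.07, 9.85, 9.51 and 9.94 in wild-type samples. Its log2 difference of -0.88 (SE 0.41, limma adjusted p = 0.878) was -0.92 among RO and -0.84 among D/F samples. It was -0.37 without knockout replicate 3 and -1.40 without knockout replicate 4. Mta3 had -0.28 (SE 0.18), with -0.66 in RO and 0.10 in D/F samples.

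Of 18 genes of active demethylation and base excision, 12 were lower and 6 higher, with a median of -0.09. In limma 1 had an unadjusted p under 0.05, the cytidine deaminase gene Apobec1, at 9.13, 8.59, 9.92 and 10.52 in knockout and 10.61, 9.30, 10.63 and 10.39 in wild-type samples (log2 difference -0.69, SE 0.29, limma adjusted p = 0.878), or -0.35 without wild-type replicate 1. Apobec3, a related antiviral deaminase gene, had 0.68 (SE 0.40), which rested on the wild-type replicate 1 signal of 9.29 and was 0.13 without it.

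Of 17 genes of methyl donor and TET cosubstrate metabolism, 9 were lower and 8 higher, with a median of -0.0055. Ahcyl2, a relative of the enzyme that clears S-adenosylhomocysteine, had -0.68 (SE 0.33), with wild-type replicate 3 at 8.27 and every other sample at or below 7.01, and -0.30 without that sample. It exceeded the background level on 2 of 8 arrays, so this size is poorly measured. Idh1, which makes the cosubstrate 2-oxoglutarate, had 0.33 (SE 0.27), or 0.05 without wild-type replicate 1. Neither list member passed.

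Of 8 CXXC-domain genes, whose proteins bind CpG without methylation, 5 were lower and 3 higher (median -0.07). The methyltransferase gene Kmt2b was at 9.34 to 9.50 in knockout and 9.56 to 9.87 in wild-type samples without overlap (log2 difference -0.23, SE 0.14, limma adjusted p = 0.878), and Cxxc5 had 0.16 (SE 0.16), or 0.03 without knockout replicate 1. Of 11 genes of H3K9 methylation and HP1, a mark that often accompanies DNA methylation, 4 were lower and 7 higher (median 0.0036). Ehmt2, the G9a methyltransferase gene, was at 10.58, 10.36, 10.42 and 10.53 in knockout and 10.89, 10.69, 10.66 and 10.67 in wild-type samples, also without overlap (-0.26, SE 0.13, limma adjusted p = 0.878). Such separation in this direction was seen in 1.03% of all genes. Cbx5, which encodes HP1 alpha, had 0.32 (SE 0.24), or 0.06 without wild-type replicate 1.

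**Figure D4:**
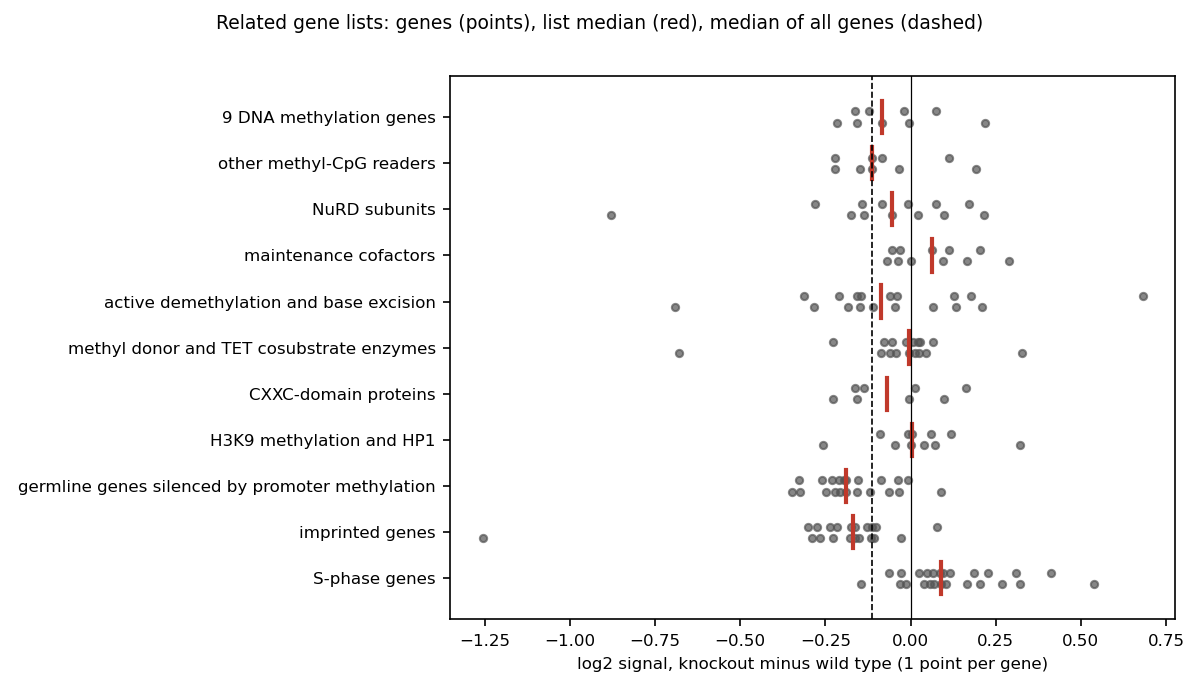
Log2 differences, knockout minus wild type, of the 9 genes and of 10 related lists, with 1 grey point per gene, the list median in red, 0 as a solid line and the median of all genes (-0.11) dashed. The 9 genes lie between -0.21 and 0.22; the lowest point is Igf2r at -1.25.

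Genes whose silence depends on promoter methylation were the closest these arrays come to a readout of methylation, and most of them stayed low in both groups. Of 21 measured germline genes of this kind, 3 had a mean above the background level set by the receptor genes, against 13032 of all 19937 genes. The mean of the 21 genes ran from 5.89 to 6.20 in knockout and from 5.89 to 6.38 in wild-type samples. Of these 21 genes, 20 were lower on average in knockout samples (median -0.19, with -0.38 in RO and -0.0024 in D/F samples). Of all genes, 72.0% were lower (median -0.11, with -0.25 in RO and 0.0097 in D/F samples). Under quantile normalization 15 of the 21 were lower, with a median of -0.04, against 56.5% and -0.02 for all genes. With arrays centred on their medians 14 of the 21 were lower, with a median of -0.04, against 39.7% and 0.04 for all genes. Dpep3 had -0.33 (SE 0.19) and Brdt -0.26 (SE 0.17), and 0 had an unadjusted p under 0.05. For the genes at background level a partial change could not have been read.

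Of 20 measured imprinted genes, which are kept active on 1 parental copy by methylation, 19 were lower on average (median -0.17, with -0.41 in RO and 0.0071 in D/F samples), and 13 were lower under quantile normalization. Of all genes, 72.0% and 56.5% were lower on these scales, with deposited medians of -0.25 in RO and 0.0097 in D/F samples. With centring 12 of the 20 were lower, with a median of -0.02, against 39.7% and 0.04 for all genes. Lower on average were also 8 of 9 stromal and 7 of 7 erythroid and megakaryocyte markers. With centring these counts were 8 of 9 and 5 of 7. This direction was therefore not particular to imprinted genes. In limma 1 of the 20 imprinted genes had an unadjusted p under 0.05, against 2.25% of all genes. This was Igf2r, expressed from the maternal copy. It was at 6.84, 6.35, 6.64 and 6.67 in knockout and at 8.78, 7.02, 7.01 and 8.71 in wild-type samples. The groups did not overlap, as in 1.03% of all genes in this direction, and wild-type replicates 1 and 4 lay far above the other 6 samples. The log2 difference was -1.25 (SE 0.40, limma adjusted p = 0.878), with -1.30 in RO and -1.21 in D/F samples, and it ran from -1.60 to -0.89 with 1 array left out. Igf2r exceeded the 95th percentile of the receptor genes on only 4 of 8 arrays, so the knockout level, and with it the size of the difference, is poorly measured. The second of the list by p, Peg12, had -0.27 (SE 0.18), or -0.18 without wild-type replicate 1.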

How the data were processed

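Per the labels' protocols, total RNA was labelled with the Affymetrix whole-transcript kit and hybridised to MoGene 1.0 ST arrays. MAS5 is named in the submitters' processing notes, and its version, settings and genome build were not found in the labels. Because MAS5 relies on mismatch probes and MoGene 1.0 ST arrays carry none for their genes, the way the signals were computed is uncertain for every value given. The deposited log2 values of the authors cover 34760 probe sets, and from the values each array's linear 2% trimmed mean is about 499.8, which leaves level-dependent differences between arrays. The platform annotation gave 21640 probe sets 1 gene symbol, 1321 several and 11799 none. The highest-mean probe set per gene gave 19937 genes, with 0 symbols updated.

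The model had genotype and title (RO or D/F) as terms, with 5 residual degrees of freedom, in limma 3.58.1 (lmFit, eBayes with trend, R 4.3.3). Benjamini-Hochberg adjustment ran over all genes, at 0.05. Interaction and title effects used the same functions. SEs and intervals are limma's. The script was tested on simulated data. Replicates are numbered in deposit order; the number of arrays limits precision, and no detection calls were used. Text names the 9 members, Jun, Cdk6, the 2 genes of smallest p per related list, and the 3 most correlated genes per member. Outside that rule it names Pja1, Il7r, Lyz2 and Cd22, chosen after their values were seen, and the 12 myeloid markers with their detection. Genes in 2 lists count in both. The members and lists were chosen with earlier results of these data known. Promoter windows are from RefSeq (GRCm38.p6), matched by symbol for 8 of 9 members, all but Mbd2. Alternatives concerned title term, scaling, dim genes, probe sets, priors, array weights and omitted arrays. Centred differences and counts used each array's median over all probe sets. Correlations after centring, and the centred spread of the members, used the median over genes.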

Additional observations from a re-analysis of the deposited data

Results flagged for a closer look

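Jun in knockout replicate 2 (6.464) lay apart from the other 3 knockout samples, which were at 6.97 to 7.02, and Jun in wild-type replicate 3 (10.55) lay apart from the other wild-type samples at 8.77 to 8.84. The gap to the nearest sample was a share of 0.916 and 0.963 of the group's range, above Dixon's 95% critical value for 4 samples, which chance passes in about 1 of 20 groups. Jun was lower in knockout samples without either array.

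The genotype difference of Mbd2 went opposite ways in RO and D/F samples, and the D/F difference minus the RO difference was -0.8774 log2 units. In the limma model fitted across all genes its adjusted interaction p was 0.716. Within each set the knockout and wild-type samples did not overlap, and the cause was not tested.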

How the results depend on the processing

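Over 21 alternatives 0 of the 9 members were called, and 1 (Mbd2, in RO samples alone) had an unadjusted limma p under 0.05. In the interaction and title tests 0 members were called in each of 12 alternatives. The number of all genes called was 1; it was 0 among genes of mean at or above the median, 2 with array weights, 32 among RO samples alone, 79 among D/F samples alone, and 0 to 2 with 1 array left out. Dnmt1, Dnmt3a, Dnmt3b and Tet3 kept their sign in all 21 but not their size: with median centring they were 0.23, -0.0054, -0.061 and -0.0091. Uhrf1 turned to 0.14 with median centring and ran from -0.085 to 0.055 with 1 array left out. Dnmt3l turned to 0.13 under quantile normalization, 0.15 with centring and 0.21 in the D/F samples, and ran from -0.14 to 0.069 with 1 array left out. Tet1 turned to 0.032 under quantile normalization, 0.030 with centring and 0.052 in the D/F samples. Tet2 turned to 0.011 under quantile normalization, 0.069 with centring and 0.017 with array weights, and ran from -0.20 to 0.027 with 1 array left out. Mbd2 turned to -0.22 in the D/F samples, and was 0.026 without knockout replicate 1. The median of all genes moved from -0.11 to -0.024 under quantile normalization and to 0.040 with centring. For these changes the cause was not tested. No paired analysis was possible because the labels carry no replicate numbers. The filter on the median removed Dnmt3l and Tet1, and the filter on the 25th percentile removed Dnmt3l. No pseudocount was varied, since the values are already on the log2 scale.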
